A study of Danio rerio with 15 samples.

Results

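Aminoacyl-tRNA synthetases attach each amino acid to its own tRNA, the step that sets the genetic code in chemical terms and supplies the ribosome with substrate. Vertebrates carry separate nuclear genes for most of the cytosolic and the mitochondrial enzymes, while the glycyl and lysyl enzymes serve both compartments from a single gene. The enzymes fall into class I and class II, which differ in the fold of the catalytic domain, and part of the cytosolic set is held in a multisynthetase complex by scaffold proteins. When charged tRNA runs short, the kinase GCN2 phosphorylates eIF2, and the transcription factor ATF4 then raises genes of amino acid supply, among them many cytosolic synthetase genes in mammals.

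The family was taken by gene symbol from the authors' deposited table for TCPMOH and DMSO, with a base mean (the mean normalized count over the fitted libraries) of at least 20. The rule found 36 genes among 36351. They comprise 21 genes for cytosolic enzymes, counting gars and kars, which serve both compartments, and the scaffold gene aimp2, then 14 genes for mitochondrial enzymes, and larsa, a second leucyl gene whose compartment was not assigned. The lowest base mean among them was 81.6, that of wars2 in the authors' deposited table, so the minimum removed 0 symbols and no gene lay near it. Each symbol had a single entry, and each of the 36 carried an adjusted p-value. The histidyl gene hars was counted as cytosolic only. Its Ensembl symbol is HARS2 and the rule found no separate hars2 entry, so hars may serve both compartments.

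Whole wild-type AB strain zebrafish were sampled at 100 hours post fertilization (hpf), each library being a pool of 8 to 10 embryos. The groups were 50 nM tris(4-chlorophenyl)methanol (TCPMOH), 50 nM tris(4-chlorophenyl)methane (TCPM) and the solvent control, dimethyl sulfoxide (DMSO) at 0.01% v/v, each given in the water for 4 hours from 96 to 100 hpf, with 5 libraries per group. Libraries were made with a stranded mRNA kit, and TCPM libraries were not analysed here. The design mentions 3 experimental replicates without saying which pool belongs to which, so the p-values measure the spread between pools, some of which may share a clutch or a day. The deposited comparison gives 1 value per gene and no value per library, so levels within the TCPMOH and the DMSO group are not shown. Its header does not name the numerator of the fold change. Here a negative value is taken to mean less transcript with TCPMOH than with DMSO, and every direction below would reverse together under the other reading. The deposited log2 fold changes appear shrunken toward 0, so folds may be understated.

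All 21 cytosolic members had negative log2 fold changes, with a median of -0.16, and 4 of them were lower with TCPMOH than with DMSO by the authors' test. The 14 mitochondrial members had a median of -0.06 with 11 negative, and 0 of them passed. Over all 36 members 33 were negative, 4 were called lower and 0 higher (DESeq2's Wald test as the authors deposited it, at a Benjamini-Hochberg adjusted p under 0.05 over 19257 genes). The members thus had 11.1% called lower and 91.7% negative, against 1.92% called lower, 0.758% called higher and 50.6% negative among all tested genes. At an unadjusted p under 0.05 there were 14 members lower (38.9%) and 0 higher, against 7.62% lower and 5.43% higher among all tested genes. Because statistical power grows with read depth, the tested genes in the base mean range of the cytosolic members are the nearer background, and 19.0% of the cytosolic members were called lower, against 2.5% of those 9906 genes. In pools of whole animals, fewer cells of a type and less RNA per cell cannot be told apart.

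**Figure D1:**
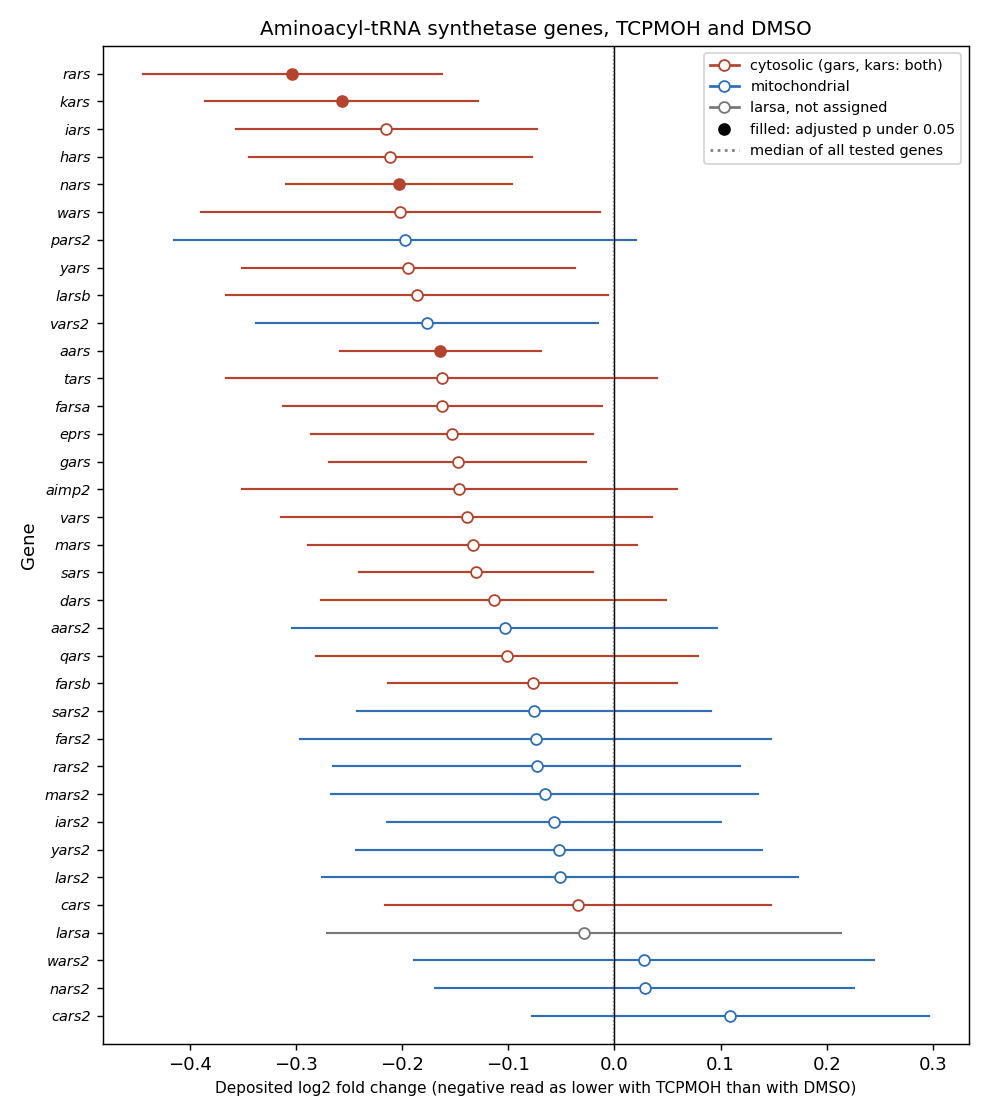
Deposited log2 fold change of 35 of the 36 synthetase genes (x axis, negative read as lower with TCPMOH than with DMSO), 1 row per gene, with 95% intervals from the deposited standard errors and filled points for an adjusted p under 0.05. The filled points are rars, kars, nars and aars, and the 3 points right of 0 are the mitochondrial genes wars2, nars2 and cars2.

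The 4 called genes were rars, kars, nars and aars. The arginyl-tRNA synthetase gene rars (RefSeq symbol rars1) had the lowest value of the family in the authors' deposited table, a log2 fold change of -0.30 (standard error, SE, 0.0720; Wald adjusted p = 0.00254), at a base mean of 1022, which is 1.23-fold lower. By p-value it was at rank 187 of the 19257 tested genes. The lysyl-tRNA synthetase gene kars (kars1) followed in the authors' deposited table at -0.26 (SE 0.0658; Wald adjusted p = 0.00731), with a base mean of 4476, which is 1.19-fold lower. The asparaginyl-tRNA synthetase gene nars (nars1) was 1.15-fold lower in the authors' deposited table, at -0.20 (SE 0.0543; Wald adjusted p = 0.0117) and a base mean of 2885. For the alanyl-tRNA synthetase gene aars (aars1) the authors' deposited table gives -0.16 (SE 0.0482; Wald adjusted p = 0.0301), which is 1.12-fold lower, and a base mean of 3730. Its fold change was smaller than that of several uncalled members, while its SE was the smallest of the family.

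The calls depended on how the statistics were centred and scaled. A shift of all fold changes by 0.048 log2 units makes equal the group sums that base mean and deposited fold change imply. These sums cover the tested genes and take both groups as equally weighted in the base mean. After the shift, rars (recomputed adjusted p = 0.0212) and kars (0.0498) kept the call and nars (0.0898) and aars (0.174) lost it. The median of all tested genes then lay at 0.046. When the DESeq2 Wald statistics were centred and divided by their own robust spread of 1.30, called the empirical null below, 0 of the 36 were called, with adjusted p = 0.127 for rars and 6 members lower at an unadjusted p under 0.05. The shares of all tested genes called after the shift, or called or lower under this null, are not given. These counts of members are therefore not set against a background.

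The called genes lie on 3 chromosomes, at coordinates given as deposited, the genome build being not given in the sources read for this work. On chromosome 21, rars runs from 35327328 to 35378321 on the plus strand, and nars from 944715 to 965598, also on the plus strand. The gene kars occupies chromosome 7 from 67429185 to 67451386 on the plus strand, and aars occupies chromosome 18 from 18636273 to 18821929 on the minus strand. Of the 4, nars alone overlaps no other gene with a base mean of at least 20. The 3 others could share reads with a neighbour, and how the counting used strand was not given in the labels. The last 279 bases of kars lie within gcshb, a glycine cleavage gene on the same strand, which was itself lower in the authors' deposited table at -0.34 (SE 0.0991; Wald adjusted p = 0.0274). Opposite rars lies ublcp1, at 0.09 (SE 0.0842) in the authors' deposited table, a value of the other sign. The span of aars, 185657 bases, holds tgm2l on the same strand, at -0.14 (SE 0.118) in the authors' deposited table. It also holds 3 further alanine tRNA ligase entries with base means of 1.03, 0.115 and 0 in the authors' deposited table, so how reads were divided among these copies is uncertain. Leaving out the 15 members that overlap another gene left 1 called, nars, of 21, and a median of -0.10. Those left out were mostly cytosolic members, and the median base mean went from 983 to 355. The part of overlap itself in these changes was not tested. The called share of all tested genes without an overlap is not given.

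Just short of the threshold stood the histidyl gene hars and the isoleucyl gene iars. In the authors' deposited table hars was at -0.21 (SE 0.0680; Wald adjusted p = 0.0641) and iars at -0.22 (SE 0.0724; adjusted p = 0.0848). Once the trend of fold change with gene span was removed, iars passed (adjusted p = 0.0357 from the DESeq2 statistics) and hars did not (0.129). With the shift to equal sums the adjusted p was 0.197 for iars and 0.177 for hars, and under the empirical null 0.651 and 0.583 from the same statistics. The span of iars overlaps atp2b2, a calcium pump gene on the same strand with a base mean of 8093 and a log2 fold change of -0.02 in the authors' deposited table.

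Among class I enzymes of the cytosol, 9 of 9 were negative, with a median of -0.19, and rars was the 1 called. The background over all tested genes was 50.6% negative and 1.92% called lower. Beside rars and iars, the tryptophanyl gene wars was at -0.20 (SE 0.0960), the tyrosyl gene yars at -0.19 (SE 0.0802) and the leucyl gene larsb at -0.19 (SE 0.0917) in the authors' deposited table. The valyl gene vars (-0.14, SE 0.0891), the methionyl gene mars (-0.13, SE 0.0791) and the glutaminyl gene qars (-0.10, SE 0.0918) had intervals that include 0 in the authors' deposited table. Nearest to 0 was the cysteinyl gene cars, at -0.03 (SE 0.0929; 95% interval -0.22 to 0.15) in the authors' deposited table, and it turned to 0.01 after the shift to equal sums. The whole span of cars, 34811 bases, overlaps sinhcafl on the same strand, so the 2 could share reads. In the authors' deposited table sinhcafl was at -0.05 (SE 0.0697) with a base mean of 1166, against 704 for cars. The wars entry spans only 1918 bases, and a second tryptophanyl entry on an unplaced scaffold, CABZ01109604.1, was at -0.10 (SE 0.111) in the authors' deposited table, so the tryptophanyl reads may be split between them.

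Class II enzymes of the cytosol were likewise negative in 10 of 10 genes, with a median of -0.16, and kars, nars and aars were called. They had a higher median base mean than the class I genes (2922 against 1020) and a smaller median SE (0.0669 against 0.0891). Called lower were 1.92% of all tested genes, and 2.5% of those in the base mean range of the cytosolic members. A difference between the classes was not tested. The threonyl gene tars was at -0.16 (SE 0.104) and the glycyl gene gars at -0.15 (SE 0.0618) in the authors' deposited table. The entry tarsl2, named as like tars, falls outside the symbol rule and is in no count of cytosolic members. It was close to 0 in the authors' deposited table, at -0.02 (SE 0.103) with a base mean of 819. For the aspartyl gene dars the authors' deposited table gives -0.11 (SE 0.0828) at a base mean of 4614, the highest of the family, and for the seryl gene sars -0.13 (SE 0.0563). Phenylalanyl-tRNA synthetase is built from an alpha and a beta subunit, and in the authors' deposited table the alpha gene farsa was at -0.16 (SE 0.0766) and the beta gene farsb at -0.08 (SE 0.0695). With SEs of this size the 2 subunit values overlap within their errors.

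As all 21 cytosolic members were negative, sign could not set those of the multisynthetase complex apart from the others. The complex was represented by 9 members, the synthetase genes rars, kars, iars, eprs, larsb, mars, qars and dars and the scaffold gene aimp2, with 9 negative, 2 called and a median of -0.15. Outside it were 12 cytosolic members, with 12 negative, 2 called and a median of -0.16. Of all tested genes 50.6% were negative and 1.92% were called lower, the latter being 2.5% in the base mean range of the cytosolic members. The bifunctional glutamyl-prolyl gene eprs was at -0.15 (SE 0.0679) and aimp2 at -0.15 (SE 0.105) in the authors' deposited table, neither called. Another scaffold gene, aimp1, falls outside the symbol rule, and the authors' deposited table gives -0.19 for it (SE 0.0872; Wald adjusted p = 0.283). The third scaffold gene, eef1e1, was at -0.08 (SE 0.0873) in the authors' deposited table.

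**Figure D2:**
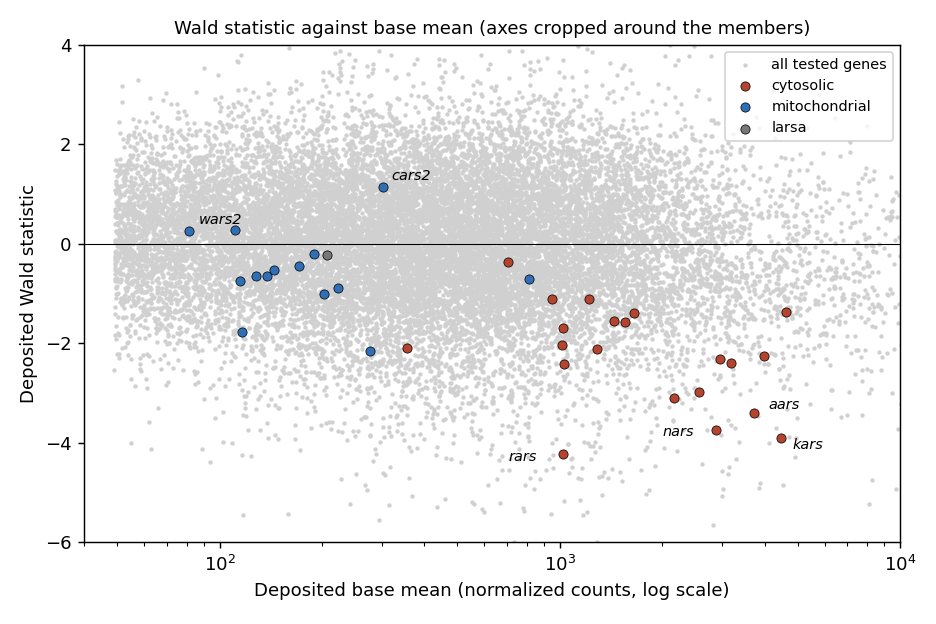
Deposited Wald statistic (y axis) against deposited base mean in normalized counts (x axis, log scale) for all tested genes in grey, cytosolic members in red, mitochondrial members in blue and larsa in dark grey, with both axes cropped. The cytosolic members lie at base means from 355 to 4614 and below 0, and the mitochondrial members lie at base means from 81.6 to 814 and mostly nearer to 0.

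Mitochondrial synthetases are encoded in the nucleus and charge the tRNAs that translate the respiratory chain subunits of mitochondrial DNA. The 2 lowest were the prolyl gene pars2 and the valyl gene vars2. In the authors' deposited table pars2 was at -0.20 (SE 0.111; Wald adjusted p = 0.448) with a base mean of 116. For vars2, the 1 mitochondrial member whose 95% interval lay below 0, the authors' deposited table gives -0.18 (SE 0.0823; Wald adjusted p = 0.305). The alanyl gene aars2 was at -0.10 (SE 0.102) in the authors' deposited table. Between -0.08 and -0.05 lay sars2, fars2, rars2, mars2, iars2, yars2 and lars2 in the authors' deposited table, with SEs from 0.0802 for iars2 to 0.114 for lars2.

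Only 3 members of the family were positive, all mitochondrial. They were the cysteinyl gene cars2 at 0.11 (SE 0.0956; Wald adjusted p = 0.676), the asparaginyl gene nars2 at 0.03 (SE 0.101) and the tryptophanyl gene wars2 at 0.03 (SE 0.111) in the authors' deposited table. Each of their intervals includes 0. The unassigned larsa was close to 0 in the authors' deposited table, at -0.03 (SE 0.123), and became 0.02 after the shift to equal sums. Its Ensembl symbol is lars1a, beside the RefSeq symbol lars1b of larsb, so larsa may belong with the cytosolic members. Its value is in neither compartment's counts or medians, and its base mean of 206 lies outside the range given for the cytosolic members. The glutamyl and threonyl enzymes of mitochondria were not analysed here, nor was a separate mitochondrial histidyl gene.

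For 13 amino acids a cytosolic gene was set beside its mitochondrial counterpart, with eprs standing for the cytosolic prolyl enzyme and farsa for the phenylalanyl one. The cytosolic value was the more negative in 11 of these 13 pairs, and the median difference, cytosolic minus mitochondrial, was -0.14 log2 units. The widest gaps were in the asparaginyl, arginyl and tryptophanyl pairs. In the authors' deposited table nars was at -0.20 (SE 0.0543) and nars2 at 0.03 (SE 0.101). The arginyl pair had -0.30 (SE 0.0720) for rars and -0.07 (SE 0.0978) for rars2 in the authors' deposited table. Reversed in order were the valyl pair, with -0.14 for vars and -0.18 for vars2, and the prolyl pair, with -0.15 for eprs and -0.20 for pars2, both in the authors' deposited table.

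The difference between the compartments was not tested, because the pairs share libraries and no value per library was used. The cytosolic partner had the higher base mean in each pair, by 2.34-fold for cysteine up to 34.3-fold for proline, and shrinkage pulls low genes harder toward 0. With the inferred shrinkage undone, the medians were -0.18 for the cytosolic and -0.08 for the mitochondrial members, and the cytosolic value was still the more negative in 11 of 13 pairs. The base mean ranges hardly meet, since 2 cytosolic and 1 mitochondrial member lie between 355 and 814.

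**Figure D3:**
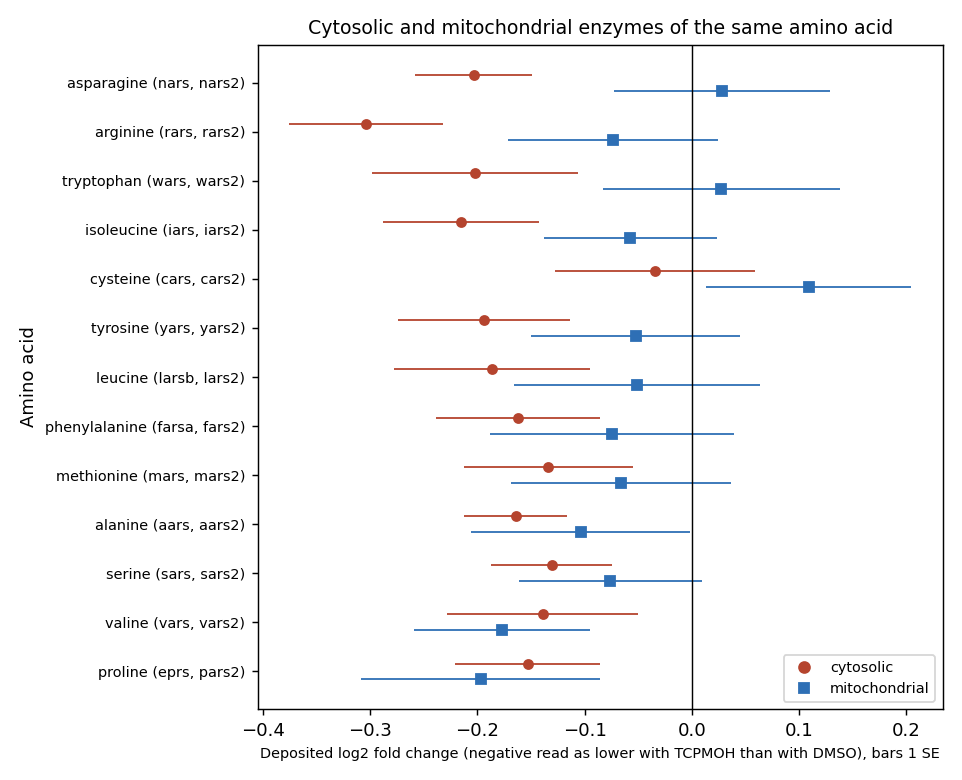
Deposited log2 fold change (x axis, negative read as lower with TCPMOH than with DMSO) of the cytosolic gene (red circles, upper) and the mitochondrial gene (blue squares, lower) for each of 13 amino acids, with bars of 1 SE. The red circle lies left of the blue square in 11 pairs, and the exceptions are valine and proline at the bottom.

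The remaining genes of tRNA charging and translation were described with 6 lists of 157 genes, of which 148 had an adjusted p-value. Of these 148, 126 were negative, 4 were called lower and 0 higher by the authors' DESeq2 test, and 35 were lower and 0 higher at an unadjusted p under 0.05. The called share, 2.7%, is near the background of 1.92%, while 23.6% were lower at an unadjusted p under 0.05, against 7.62% of all tested genes, and 85.1% were negative, against 50.6%. In tRNA modification 48 of 57 tested genes were negative (median -0.12). Its called genes in the authors' deposited table were the pseudouridine synthase gene pus7 at -0.27 (SE 0.0815; Wald adjusted p = 0.0412) and the methylthiotransferase gene cdkal1 at -0.33 (SE 0.101; adjusted p = 0.0428). In tRNA processing 21 of 23 were negative (median -0.13), and elac2, which trims the 3′ end of tRNA precursors, was lower in the authors' deposited table, with -0.30 (SE 0.0821; Wald adjusted p = 0.0171). The calls of pus7 (adjusted p = 0.0679) and cdkal1 (0.0705) were lost when DESeq2 p-values were adjusted over all genes with one. Equal sums ended all 3 calls (adjusted p = 0.119 for pus7, 0.0997 for cdkal1 and 0.0659 for elac2), as did the empirical null, with adjusted p from 0.316 to 0.485. Removal of the span trend ended the calls of pus7 (adjusted p = 0.124) and cdkal1 (0.0681) and kept that of elac2 (0.00843).

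Elongation factors, which carry charged tRNA to the ribosome and move it along, were negative in 17 of 18 tested genes with a median of -0.14, and 0 were called. The mitochondrial elongation factor genes tufm (-0.19, SE 0.0642; Wald adjusted p = 0.0847) and tsfm (-0.23, SE 0.0994; adjusted p = 0.241) had the smallest p-values there in the authors' deposited table. Synthetase-related genes outside the symbol rule had a median of -0.04, with 9 of 11 negative and 0 called. They include tRNA deacylases, the mitochondrial amidotransferase, the scaffold gene eef1e1 and tarsl2, named as like the threonyl gene tars. The lowest of them was dtd1, which removes D-amino acids from tRNA, at -0.26 (SE 0.0918; Wald adjusted p = 0.120) in the authors' deposited table, and mtfmt, the mitochondrial methionyl-tRNA formyltransferase, was at -0.15 (SE 0.0932).

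The arm that responds to uncharged tRNA was read next. Of 31 tested genes in the list of ATF4 and its targets 24 were negative (median -0.05), 1 was called lower and 0 higher. At an unadjusted p under 0.05, 8 of the 31 were lower and 0 higher. Among all tested genes 1.92% were called lower and 7.62% were lower at an unadjusted p under 0.05. In the authors' deposited table atf4a was at -0.06 (SE 0.0979) and atf4b at -0.05 (SE 0.0543). The stress-induced targets chac1 (0.01, SE 0.113), ddit3 (0.06, SE 0.0924) and trib3 (-0.04, SE 0.0893) lay close to 0 in the authors' deposited table. For the asparagine synthetase gene asns the authors' deposited table gives -0.20 (SE 0.109; Wald adjusted p = 0.436). The called gene was pycr1a, of proline synthesis, at -0.30 (SE 0.0774; Wald adjusted p = 0.00808) in the authors' deposited table, and its adjusted p was 0.226 under the empirical null. Of 10 listed eIF2 kinase genes and partners 8 were tested, and the GCN2 gene eif2ak4 was not among them. Of the 8, 7 were negative (median -0.08) and 0 were called. The lowest p-values there belonged to gcn1, a coactivator of GCN2, at -0.19 (SE 0.0736), and to the eIF2 alpha gene eif2s1a at -0.18 (SE 0.0751), both in the authors' deposited table.

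Shifts of similar size ran through the ribosome itself. By symbol, 79 of 80 cytosolic ribosomal protein genes were negative (median -0.14), 73 of 74 mitochondrial ribosomal protein genes (median -0.15) and 55 of 63 tested genes with an eif symbol (median -0.10). The eif symbols cover initiation factors and also genes of the lists above, such as eif2ak2, eif4ebp1 and the elongation factor gene eif5a. Called lower were 0, 0 and 1 gene of these groups, in that order, by the authors' DESeq2 test. At an unadjusted p under 0.05, 5 of 80, 27 of 74 and 13 of 63 were lower. Among all tested genes 50.6% were negative, 1.92% were called lower and 7.62% were lower at an unadjusted p under 0.05. The cytosolic synthetases are longer genes than these, with a median span of 24503 bases against 5948 for cytosolic and 6560 for mitochondrial ribosomal protein genes. Removing the trend with span left the synthetase medians at -0.17 (cytosolic) and -0.06 (mitochondrial), and moved the medians of the cytosolic and the mitochondrial ribosomal protein genes to -0.10 and -0.11. No test of a difference between these groups was made, and the shift is not called particular to the synthetases.

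**Figure D4:**
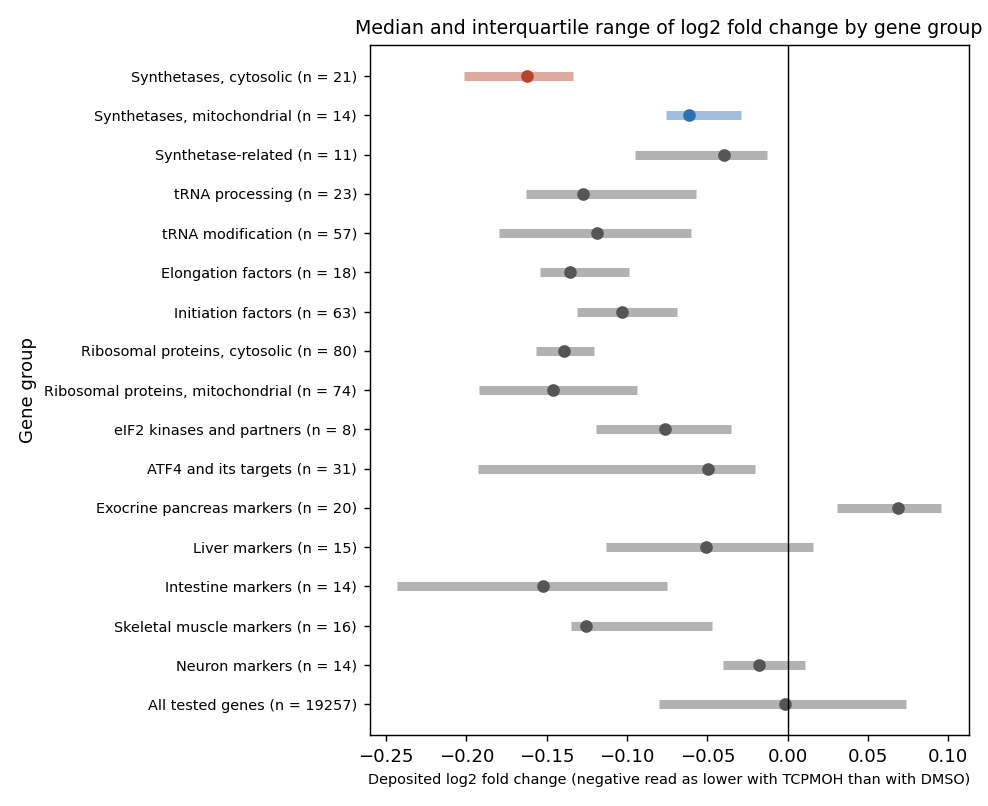
Median (points) and interquartile range (bars) of the deposited log2 fold change (x axis, negative read as lower with TCPMOH than with DMSO) for synthetases, other translation genes, cell type markers and all 19257 tested genes. The row of initiation factors holds all genes with an eif symbol, including some of other rows. The cytosolic synthetases have the lowest median of the groups drawn, -0.16, and exocrine pancreas markers the highest, 0.07. Intestine markers and mitochondrial ribosomal proteins lie close by, at -0.15 each. With the inferred shrinkage undone, which is not drawn, the intestine markers have a lower median (-0.20) than the cytosolic synthetases (-0.18).

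Markers of cell types were read beside the synthetases, because each library holds whole animals. Exocrine pancreas markers were positive in 20 of 20 tested genes (median 0.07) and 0 were called. The smallest p-values among them in the authors' deposited table were those of the syncollin gene sycn.2 at 0.19 (SE 0.121; Wald adjusted p = 0.531) and the elastase gene ela2l at 0.15 (SE 0.113; adjusted p = 0.618). Intestine markers were negative in 13 of 14 (median -0.15) with the apolipoprotein gene apoa4a lower at -0.41 (SE 0.113; Wald adjusted p = 0.0162) in the authors' deposited table. Its call was lost under the empirical null (adjusted p = 0.309 from the DESeq2 statistics) and after removal of the span trend (0.0504). It was the 1 called of 14, against 1.92% called lower among all tested genes. At an unadjusted p under 0.05, 6 of the 14 intestine markers were lower and 0 higher, against 7.62% and 5.43% of all tested genes. Liver markers were negative in 11 of 15 (median -0.05), skeletal muscle markers in 14 of 16 (median -0.13) and neuron markers in 8 of 14 (median -0.02), with 0 called in each. At the unadjusted level 0 liver, 0 muscle and 1 neuron marker were lower, and 0 exocrine pancreas markers were higher. The smallest p-values in the authors' deposited table belonged to the transthyretin gene ttr (-0.20, SE 0.108) and the fetuin gene fetub (-0.20, SE 0.115) in liver and to the troponin gene tnni2a.4 (-0.15, SE 0.0911) and the creatine kinase gene ckmb (-0.15, SE 0.0962) in muscle. In neurons they belonged to the inhibitory transmitter transporter gene slc32a1 (-0.13, SE 0.0527; Wald adjusted p = 0.179) and the growth cone gene gap43 (-0.14, SE 0.0843) in the authors' deposited table. The listed markers without an adjusted p included sycn.1 of the exocrine pancreas and hp of the liver, with base means of 25.9 and 2.08 in the authors' deposited table, and 4 listed symbols did not match an entry. The summed marker level that base mean and fold change imply was, in TCPMOH relative to DMSO, 1.04-fold for the exocrine pancreas, 0.899-fold for the intestine, 0.955-fold for the liver, 0.926-fold for muscle and 0.996-fold for neurons. These ratios take both groups as equally weighted in the base mean and carry no spread over libraries. The part of cell composition in the synthetase values was not tested.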

How the data were processed

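Per the submitters' processing notes, the authors used STAR, featureCounts, DESeq2, cutadapt and FastQC, with no version or order given. Per the file headers, genes follow a version 4.3.2 GTF and carry identifiers of Ensembl release 99. The authors' deposited table holds 36351 genes, and 0 of its columns are named for a sample, so depth per library is unknown. The base mean deposited by the authors is a signal, read as the mean of DESeq2-normalized counts. The deposited fold change and its SE are log2 values, the deposited Wald statistic is a score (fold change over SE), and the deposited p-values are two-sided with a Benjamini-Hochberg adjustment over 19257 genes, which recomputation matched within 5.17e-06.

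The members and lists were chosen with earlier results of these data known. A gene was called at an adjusted p under 0.05. Text names every member except 1, which is in the counts and medians of the family but whose own values and pair are not reported here, up to 6 called genes of each other list by smallest p, otherwise 2, and 6 ATF4 pathway genes always. Genes named outside that rule were chosen after their values were seen: overlapping or related entries (aimp1, eef1e1, gcshb, ublcp1, tgm2l, atp2b2, sinhcafl, tarsl2, LO017852.1, CABZ01109604.1), ATF4 pathway genes (phgdh, psph, pycr1b, cth, psat1, aldh18a1, sesn2, eif4ebp1, mthfd2, ddit4) and markers without an adjusted p (sycn.1, hp). Intervals are 1.96 SE at the 95% level. The SEs peak at 0.124, as a normal prior with a standard deviation of 0.248 would give, and undoing the shrinkage uses that value. The span trend is a running median over 1001 genes. Recomputed p-values and the undone shrinkage were tested on simulated data. The simulation used the same inferred prior, so it checks the computation and cannot show that the deposited values were shrunken with that prior. By Entrez identifier 34 of 36 members matched RefSeq (GRCz12tu), used for symbols only. Software was matplotlib 3.10.9, scipy 1.17.1, numpy 2.4.6, pandas 2.3.3 and Python 3.11.15.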

Additional observations from a re-analysis of the deposited data

How the results depend on the processing

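The count of 4 members called lower became 2 at an adjusted p under 0.01, 2 with the shift to equal sums, 0 under the empirical null and 1 without members that overlap another gene, the last an alternative chosen after seeing the data. It was 4 to 6 under the other alternatives run (an adjusted p under 0.1, adjustment over all genes with a p-value, removal of the span trend, every entry of a symbol, a base mean of at least 100 or no minimum, and adding aimp1, tarsl2, LO017852.1 and CABZ01109604.1). Of those added entries, tarsl2, named as like the threonyl gene tars, was close to 0 at -0.02 (SE 0.103) in the authors' deposited table. There LO017852.1 was at -0.11 (SE 0.0787). The count of members called higher was 0 under each. The median of -0.13 ranged from -0.14 to -0.08. After the shift to equal sums cars and larsa turned to 0.014 and 0.019, and the ATF4 pathway genes atf4b and trib3 to 0.0014 and 0.0085, with trib3 at 0.0012 after removal of the span trend. The shift moves every gene by the same amount. After it the median of all tested genes was 0.046, with 6665 of 19257 negative. The members then had a median of -0.084, with 30 of 36 negative. The 4 genes called lower in the 6 other lists became 9 at an adjusted p under 0.1, 1 at 0.01, 2 with adjustment over all genes with a p-value, 1 after the shift and 0 under the empirical null (13 at an unadjusted p under 0.05). Those 13, and the counts called under these alternatives for the members and the lists, likewise have no share of all tested genes beside them. No paired analysis was possible because the columns carry no replicate numbers and no values per library, and leaving out replicates was not run for the same reason. The median SE was 0.0766 for the cytosolic members and 0.101 for the mitochondrial members, which had the lower median base mean. Single members did not always follow base mean, since aimp2 (base mean 1654) had an SE of 0.105 and vars2 (278) of 0.0823.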

Other observations

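Within the list of ATF4 and its targets, the smallest p-values after that of the called pycr1a belonged to genes of serine, proline and cysteine synthesis, a subset chosen after its values were seen and therefore not tested. In the authors' deposited table phgdh, the first enzyme of serine synthesis, was at -0.27 (SE 0.0887; Wald adjusted p = 0.0704), and psph, its last enzyme, at -0.25 (SE 0.0970; adjusted p = 0.188). The proline synthesis gene pycr1b was at -0.23 (SE 0.0751; Wald adjusted p = 0.0677) in the authors' deposited table, beside the called pycr1a. The cystathionine gamma-lyase gene cth was at -0.19 (SE 0.0610; Wald adjusted p = 0.0663) in the authors' deposited table. Not every gene of those pathways was low, since psat1 of serine synthesis was at -0.02 (SE 0.103) and aldh18a1 of proline synthesis at 0.02 (SE 0.0933) in the authors' deposited table. The stress-induced genes sesn2, at -0.21 (SE 0.0964; Wald adjusted p = 0.290), and ddit4, at -0.21 (SE 0.120; adjusted p = 0.463), lay at similar values in the authors' deposited table. Other stress-induced genes of the list lay close to 0 there, among them chac1 (0.01), ddit3 (0.06) and trib3 (-0.04).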
